A study of Sus scrofa with 40 samples.

Results

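Genes of cell division and DNA replication were followed in pig kidneys through warm ischemia and cold storage. Of 46 listed genes, 19 had a row whose gene name or bracketed symbol in the description equalled the listed symbol, and these rows held 37 probes under 25 sequence identifiers, out of 35955 identifiers on the array. Another 27 listed genes had no such row. Of these, 10 were found under 11 identifiers by full name or RefSeq accession and are described separately, and 17 were not analysed here: CCND1, CCNE1, CCNE2, MCM2, MCM6, MCM7, RRM1, RRM2, TYMS, CCNA2, CDC25B, TTK, BUB1, BUB1B, MAD2L1, NUSAP1 and UBE2C.

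RNA came from 3-month-old Large White pigs, and every group held 5 samples. Control kidneys (Ctl) were 5 independent kidneys without ischemia. The warm ischemia group (WI) was 5 independent kidneys clamped for 60 min at 37 °C. The third set was 5 independent kidneys with the same warm ischemia, then flushed with University of Wisconsin solution at 4 °C and cold stored, and these same kidneys were sampled after 6 h (WI+CS6h) and 24 h (WI+CS24h). Biopsies of cortex (C) and corticomedullary junction (CMJ) were taken, which makes 8 groups and 40 one-colour arrays from 15 kidneys. Kidneys were sampled before any transplantation or return of blood flow, so no group models the recipient. Whole tissue was measured, so fewer cells of a type and less RNA per cell cannot be told apart. The samples carry the numbers 1 to 5 in each group; the labels do not say that a number marks the same kidney in different groups.

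A dividing cell passes from G1, where D-type cyclins with CDK4 and CDK6 and then CDK2 act, through S phase, where the MCM helicase, CDC45 and PCNA copy the DNA, to mitosis, which CDK1 with cyclin B, the Aurora kinases and the kinetochore checkpoint drive and which CDC20 ends. Most transcripts of the S and mitotic steps are made mainly in cells that cycle. Most epithelial cells of the kidney rest outside the cycle, and tubular cells are known to re-enter it during repair after ischemic injury.

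A value below is the log2 of an array's processed intensity after quantile normalization over the 40 arrays, and a difference is a difference of log2 values. Levels of different probes were not set against each other. A gene was called when limma's test gave an adjusted p under 0.05 (Benjamini-Hochberg over all identifiers) with a difference of at least 0.5. Of the 25 identifiers, 19 were well above background on 40 of 40 arrays. CDC20 was above it on 39 arrays, MCM3 on 36, CCNB2 NM_001114282 on 29, XRCC2 on 14, CDC45 ENSSSCT00000036183 on 8 and CCNB2 AK239528 on 1.

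The results below turn on a few probes, and these are shown by their first 30 of 60 bases, 5′ to 3′ as listed in the array files. AURKB had 3 probes with no long stretch in common, and they did not respond alike. XRCC2 had 1 probe. The probes of 2 CDC45 identifiers overlap by 50 bases, written in capitals where the overlap falls within the bases shown, so these identifiers are not independent readings.
AURKB A_72_P440256: tcccgcacctgccttctccctcctttttat
AURKB A_72_P735663: ttccacagtcgtatctgtgtctgtatgaat
AURKB A_72_P745159: tgcgtctctacaactatttctatgaccgga
XRCC2 A_72_P162251: tctgaagaaatgttctcaactcttggagaa
CDC45 A_72_P035116: ctaagttataGGCGTAGTTCTAGATGTAGG
CDC45 A_72_P552061: GGCGTAGTTCTAGATGTAGGAACAGTGGTT

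After cold storage, AURKB and XRCC2 were called higher, and the other 17 genes were not called in any comparison of this fit. The XRCC2 probe was not well above background on any Ctl or WI array, and the AURKB probes did not respond alike. With an offset of 50 added to the intensities neither gene was called. In C, 2 of 25 identifiers were called against Ctl at 6 h and the same 2 at 24 h, where 4.02% and 2.5% of all identifiers were called, 1.63% and 1.04% of them in the higher direction. In CMJ, 2 were called at 6 h and 1 at 24 h, against 3.19% and 3.65% of all identifiers, 1.35% higher at 6 h and 1.35% at 24 h. Every call among the members was higher in the cold-stored group. Against WI, XRCC2 alone was called in each of the 4 cold-stored groups, beside 1.93% and 1.2% of all identifiers in C and 2.78% and 2.85% in CMJ (1%, 0.637%, 1.37% and 1.24% in the higher direction). After WI alone no member was called in either tissue, where 0.0946% of all identifiers were called in C and 0.687% in CMJ, and at an unadjusted p under 0.05 there were 1 member in C and 2 in CMJ, beside 4.89% and 12.3% of all identifiers. Between 24 h and 6 h of storage limma called none, and none had an unadjusted p under 0.05, in C or in CMJ, with 0% and 0.00278% of all identifiers called and 3.11% and 3.44% at an unadjusted p under 0.05. That fit takes the arrays of the 2 times as independent, and with the sample number as a block, fixed or random, the count of members called was 0 in both tissues as well. Neither block fully pairs the times for these genes. The fixed block also ties in Ctl and WI numbers, which do not pair. The random block used a single correlation for all identifiers, 0.047 in C and 0.474 in CMJ, under the members' medians given below. A paired test of the 2 times was not made, so a small change within kidneys could be missed. Calls among 25 identifiers are few, and these shares lie near the background.

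The direction of the differences was more uneven than the calls. At 6 h in C, 21 of 25 identifiers had a difference above 0 against Ctl, and 22 did at 24 h, where 57.3% and 53.1% of all identifiers did. In CMJ the counts were 23 and 21, beside 48.2% and 51.1%. Non-overlapping groups were few: against Ctl, all samples of the cold-stored group lay above all Ctl samples for AURKB and XRCC2 in C at 6 h, for these and CDK2 in C at 24 h, and for AURKB in CMJ at both times, where 2.6%, 2.76%, 2.68% and 2.21% of all identifiers did. Against WI, they did so for XRCC2 in the 4 cold-stored groups and for AURKB in C at 24 h, where 1.92%, 1.89%, 3.23% and 2.34% of all identifiers did. The median difference of the members was 0.42 and 0.38 in C and 0.26 and 0.20 in CMJ, and the medians over all identifiers were 0.047 and 0.0084 in C and -0.0078 and 0.0044 in CMJ. An unadjusted p under 0.05 was reached in C by 9 members at 6 h and 6 at 24 h, with 21.4% and 16.2% of all identifiers, and in CMJ by 3 and 2, with 16% and 17.7%. Many of these genes share samples and may be transcribed together, so the counts are not independent readings, and no test was made over the list.

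**Figure D1:**
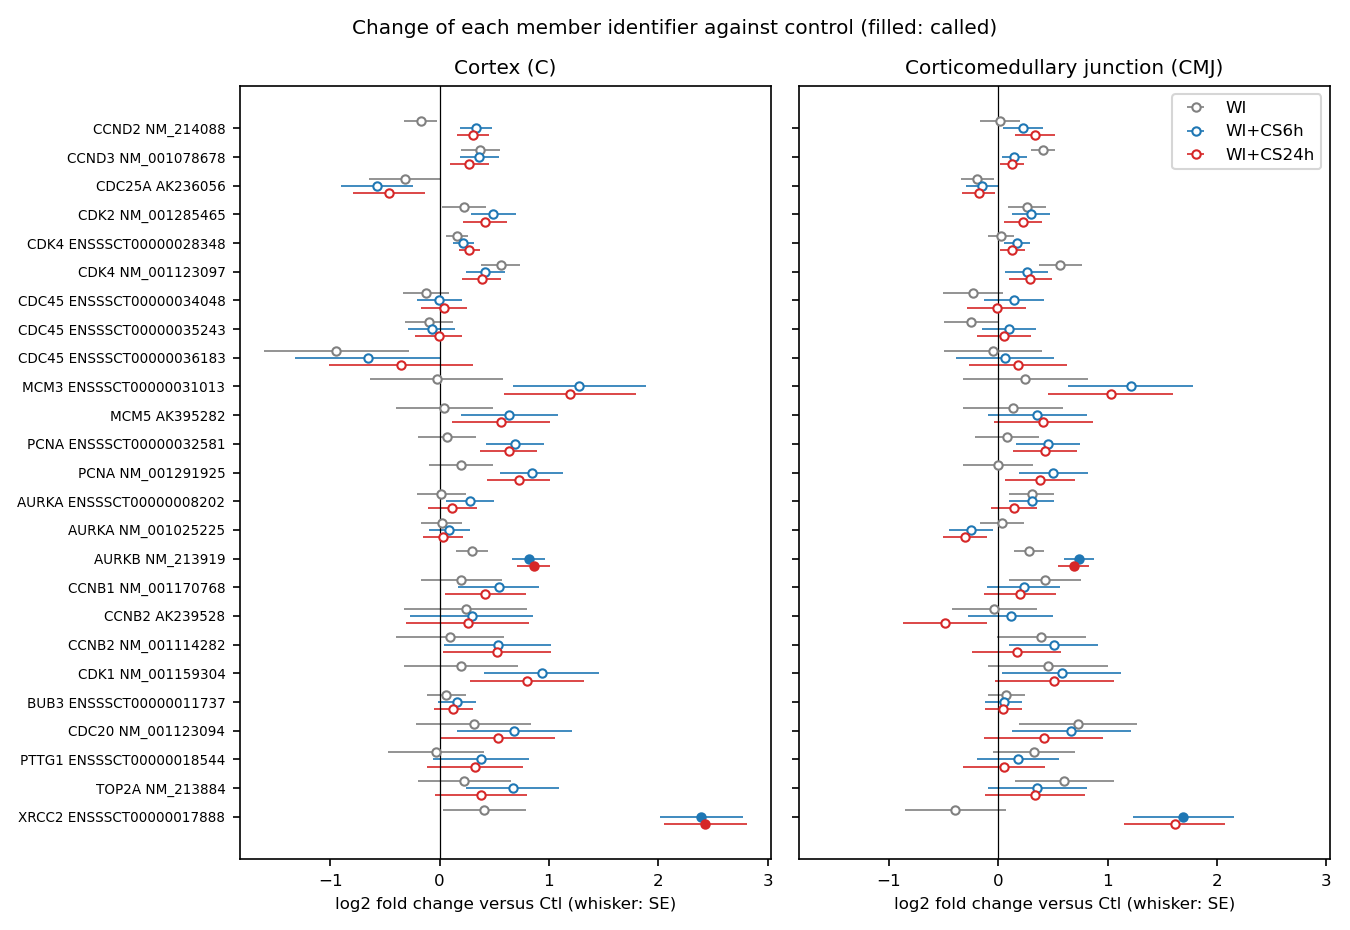
Log2 difference from Ctl of the same tissue for the 25 identifiers, in C (left) and CMJ (right), for WI, WI+CS6h and WI+CS24h, with the SE as whiskers and filled points for called identifiers. Most points of the cold-stored groups lie right of 0, and the filled points belong to AURKB and to XRCC2, whose points are fitted values against levels below background and which is open at 24 h in CMJ.

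XRCC2 (ENSSSCT00000017888), a protein of homologous recombination repair, read 0.59, 0.19, 0.12, 1.02 and 0.15 in Ctl-C samples 1 to 5 and 1.70, 1.37, 0.34, 0.18 and 0.53 in WI-C. After 6 h of cold storage it read 2.77, 2.19, 2.74, 2.26 and 4.09 in C, and after 24 h 2.49, 2.70, 2.24, 2.94 and 3.87. Each of these 10 cold-stored cortex values lay above the 10 Ctl and WI values of the cortex. The probe was well above background on 0 of 5 Ctl-C arrays, 0 of 5 WI-C arrays, 3 of 5 at 6 h and 5 of 5 at 24 h. A level below background is not measured, so the mean of the brighter group was set against the mean, over the dim arrays, of the lowest signal that was well above background there. Some values not well above background exceed that lowest signal. In WI-CMJ sample 3, CCNB2 NM_001114282 read 2.80 without being well above background, and the lowest signal was 2.76. The ratio is therefore a guide to size and not a strict lower bound. The brighter mean takes in all 5 arrays, so at 6 h, where 2 arrays in C and 1 in CMJ were not well above background, the ratio rests in part on values not measured. For XRCC2 the ratio to Ctl-C was 1.56 at 6 h (group means 2.81 and 0.42, limma adjusted p = 0.00149) and 1.6 at 24 h (mean 2.85, limma adjusted p = 0.0015). Against WI-C, whose mean was 0.82, the ratios were 1.29 (limma adjusted p = 0.00945) and 1.32 (limma adjusted p = 0.0103).

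In CMJ, XRCC2 read 1.35, 0.18, 1.91, 0.47 and 0.97 in Ctl and 1.53, 0.95, 0.19, 0.11 and 0.15 after WI. The values were 2.74, 2.69, 2.18, 1.67 and 4.06 at 6 h and 2.22, 2.72, 1.81, 2.24 and 3.96 at 24 h. The cold-stored values cleared every WI-CMJ value, but at both times the lowest fell under the highest Ctl-CMJ value of 1.91. It was well above background on 0 Ctl-CMJ and 0 WI-CMJ arrays, 4 at 6 h and 2 at 24 h. The ratio to Ctl-CMJ, formed in the same way, was 1.29 at 6 h (means 2.67 and 0.98, limma adjusted p = 0.0441). At 24 h the mean was 2.59 and XRCC2 was not called (limma adjusted p = 0.0514). Against WI-CMJ, mean 0.59, the ratio was 1.18 at 6 h (limma adjusted p = 0.0164). The call at 24 h against WI-CMJ (limma adjusted p = 0.0194) is given no fold, since only 2 of 5 arrays measured it. Sample 5 was the highest in each of the 4 cold-stored groups, so it raised these means and the ratios formed from them. Without WI+CS6h-CMJ sample 5 the fitted difference from Ctl-CMJ was 1.34 (limma adjusted p = 0.105), and no ratio was computed.

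The XRCC2 calls in C held whichever array of the compared groups was left out, with limma adjusted p of 0.00146 to 0.0065 at 6 h against Ctl-C and 0.00203 to 0.00666 at 24 h. In CMJ at 6 h against Ctl the call was lost on leaving out any of 8 of the 10 arrays, all but Ctl-CMJ sample 3 and WI+CS6h-CMJ sample 4 (limma adjusted p of 0.027 to 0.121 over the 10). At 24 h in CMJ against Ctl it was called with the sample number as a block (limma adjusted p = 0.0427) and with kidney as a random block (limma adjusted p = 0.0306). Against WI-CMJ the call at 24 h was lost without WI-CMJ sample 3, 4 or 5 (limma adjusted p of 0.0517 to 0.0556). The calls against WI at 6 h were lost with a slide term in C (limma adjusted p = 0.149) and CMJ (limma adjusted p = 0.0981). In CMJ that call was also lost with a term for the share of detected spots (limma adjusted p = 0.0567), as was the 6 h call against Ctl-CMJ (limma adjusted p = 0.0905). XRCC2 was not called in any of the 4 groups with normexp background correction, which adds an offset of 50 to every signal and so shrinks the differences of dim probes. Its differences from Ctl-C were then 0.083 (limma adjusted p = 0.171) and 0.086 (limma adjusted p = 0.186). With the offset alone, added to the processed intensity, they were 0.17 (limma adjusted p = 0.0497) and 0.17 (limma adjusted p = 0.0659), also under the threshold of 0.5. In the deposited log2 matrix the differences in C were 0.38 and 0.36, under the threshold of 0.5. There the difference from Ctl-CMJ at 6 h was 0.25 (limma adjusted p = 0.193), also not called.

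AURKB (NM_213919), the catalytic kinase of the chromosomal passenger complex, which corrects the attachment of chromosomes to the spindle, read 5.23, 5.54, 5.64, 5.92 and 5.94 in Ctl-C and 5.77, 6.21, 5.72, 5.98 and 6.07 in WI-C. In cold-stored C it read 6.83, 6.59, 6.21, 6.30 and 6.43 at 6 h and 6.77, 6.65, 6.34, 6.46 and 6.38 at 24 h. The cold-stored values did not overlap with Ctl-C at either time. The difference from Ctl-C was 0.82 ± 0.15 (SE, n = 5 each, limma adjusted p = 0.00416) at 6 h, or 1.76-fold, and 0.86 ± 0.15 (limma adjusted p = 0.00341) at 24 h, or 1.82-fold. These folds average 3 probes that did not respond alike, including a probe not well above background on part of the Ctl-C arrays. AURKB was among the genes that the study itself singled out from these samples, so its rise is no independent observation.

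In CMJ, AURKB read 5.96, 5.69, 5.36, 6.00 and 6.13 in Ctl and 5.99, 6.03, 5.94, 6.36 and 6.22 after WI. It read 6.58, 6.74, 6.41, 6.31 and 6.79 at 6 h and 6.61, 6.77, 6.43, 6.33 and 6.43 at 24 h, above the Ctl-CMJ values throughout. The differences from Ctl-CMJ were 0.74 ± 0.14 (SE, limma adjusted p = 0.00453) and 0.69 ± 0.14 (limma adjusted p = 0.00624). WI kidneys lay between: 0.30 above Ctl in C (limma adjusted p = 1) and 0.28 in CMJ (limma adjusted p = 0.441). Cold-stored kidneys differed from WI by 0.52 and 0.57 in C and by 0.46 and 0.41 in CMJ, none called (limma adjusted p of 0.069 to 0.121). Against WI-C at 24 h AURKB was called in the deposited log2 matrix, at 0.56 (limma adjusted p = 0.0399), and with a term for the share of detected spots, at 0.58 (limma adjusted p = 0.0428). With quantiles within each group it was called against WI in C at 6 h (limma adjusted p = 0.012) and 24 h (limma adjusted p = 0.0459) and in CMJ at 6 h (limma adjusted p = 0.0187). The change in CMJ minus the change in C was not called for AURKB or for any other member, and no member differed between Ctl-CMJ and Ctl-C beyond the threshold, where 0.312% of all identifiers were called. At an unadjusted p under 0.05 there were 0 members in each of these, beside 6.09% of all identifiers between the tissues and 1.98%, 5.17% and 2.58% for the change after WI, 6 h and 24 h, and limma called 0% of all identifiers for any of the 3 changes.

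The AURKB calls against Ctl held whichever array of the compared groups was left out (limma adjusted p of 0.00288 to 0.0214). Arrays were scanned on 2 days with every group on both, and on each day the cold-stored values were higher. The difference in C at 6 h was 1.13 on day 1 (2 against 2 arrays) and 0.61 on day 2 (3 against 3), and in CMJ 1.02 and 0.55. At 24 h it was 1.19 and 0.56 in C and 0.80 and 0.59 in CMJ. With a term for slide the 24 h differences of 1.03 in C (limma adjusted p = 0.104) and 0.63 in CMJ (limma adjusted p = 0.0981) were not called, while the 6 h differences were. With normexp and its offset of 50 the 4 differences were 0.15 to 0.19, under the threshold of 0.5, with limma adjusted p of 0.0078 to 0.0283. With the offset alone they were 0.24 to 0.31 (limma adjusted p of 0.00593 to 0.0162), so the size of the AURKB difference depended on the offset and its adjusted p stayed under 0.05.

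**Figure D2:**
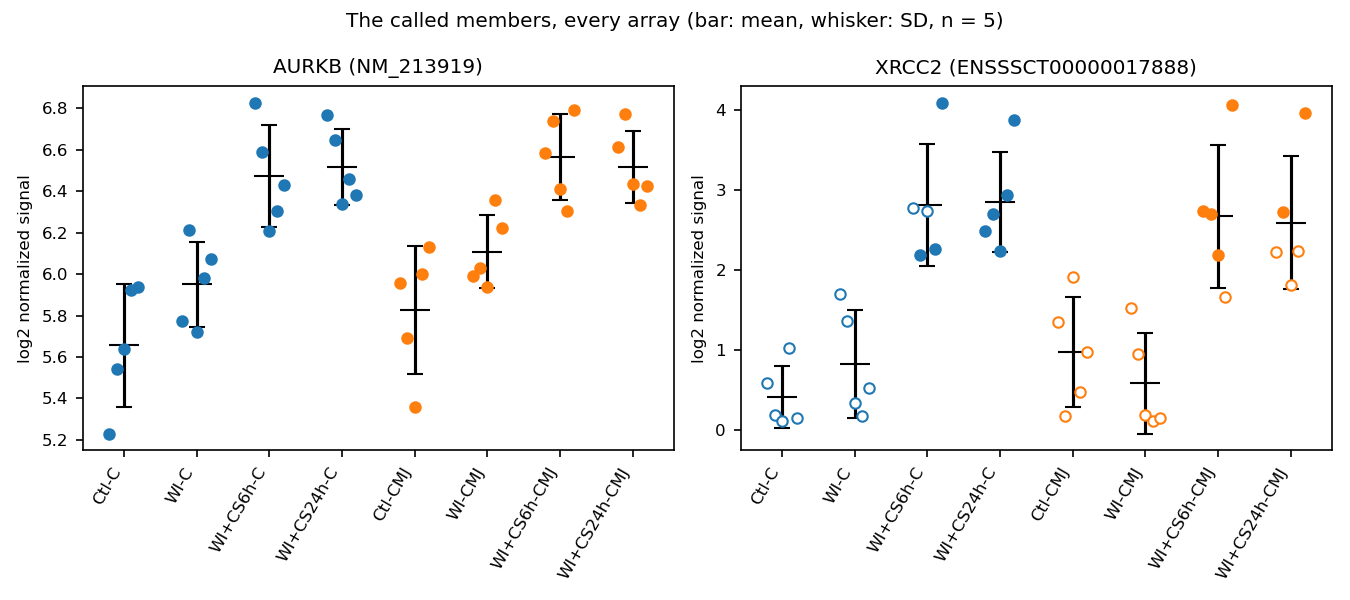
Log2 signal of AURKB and XRCC2 on every array by group, with the mean as a bar and the SD as a whisker (n = 5). The cold-stored groups sit above Ctl in both tissues, and XRCC2 in Ctl and WI lies between 0.11 and 1.91, below background.

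The 3 AURKB probes did not move together. A_72_P735663 differed from Ctl by 1.12 and 1.18 in C and by 1.00 and 0.97 in CMJ (6 h and 24 h, limma adjusted p of 0.00277 to 0.0101). A_72_P745159 differed by 1.15 and 1.22 in C and 1.11 and 1.04 in CMJ (limma adjusted p of 0.00507 to 0.00779), but it was well above background on only 2 of 5 Ctl-C, 3 of 5 Ctl-CMJ and 3 of 5 WI+CS6h-C arrays, so these sizes rest in part on levels not measured. A_72_P440256 differed by 0.18, 0.19, 0.11 and 0.063 and was not called in any of the 4 (limma adjusted p of 0.256 to 0.695). The gene's difference of 0.69 to 0.86 is the mean over the 3 probes. Which transcript the first probe reads was not tested.

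**Figure D3:**
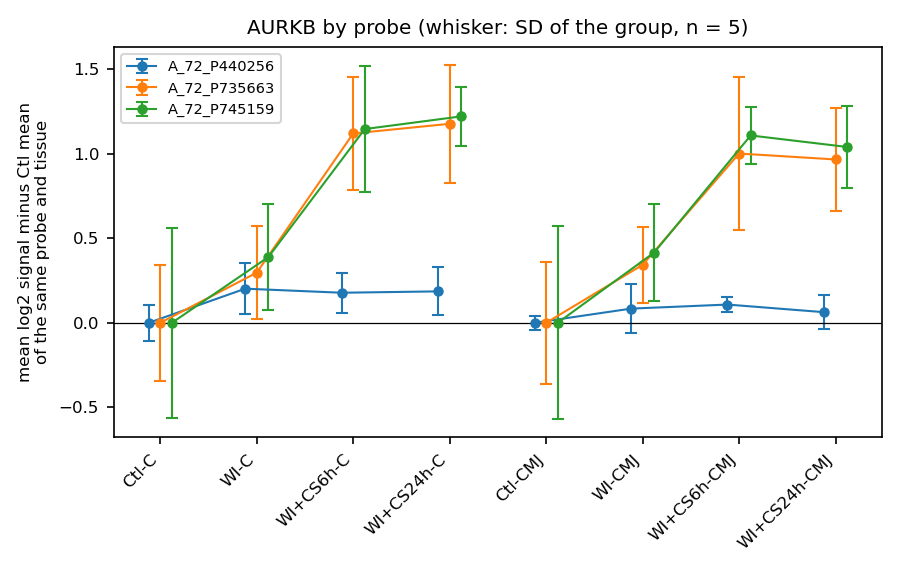
Mean log2 signal of each AURKB probe minus its Ctl mean in the same tissue, by group, with the SD of the group as a whisker (n = 5). A_72_P735663 and A_72_P745159, the latter below background on part of the Ctl arrays, lie at 0.97 to 1.22 in the cold-stored groups and A_72_P440256 stays at 0.063 to 0.19.

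Among the G1 genes, 0 of 6 identifiers were called against Ctl in any of the 4 cold-stored groups by limma, and at an unadjusted p under 0.05 there were 4 at 6 h and 2 at 24 h in C and 0 in CMJ, beside 21.4% and 16.2% of all identifiers in C and 16% and 17.7% in CMJ. CDK2, which with cyclin E drives entry into S phase, differed from Ctl-C by 0.49 (limma adjusted p = 0.174) at 6 h, and its 5 probes by 0.23 to 0.79. CCND2, a D-type cyclin, differed by 0.33 at 6 h and 0.31 at 24 h in C. CDC25A, the phosphatase that activates CDK2, went the other way at -0.57 (limma adjusted p = 0.312) and -0.46. The largest WI differences of the group were those of CDK4 NM_001123097, the kinase partner of D-type cyclins, at 0.56 in C (limma adjusted p = 0.655) and 0.57 in CMJ (limma adjusted p = 0.197). The other CDK4 identifier, ENSSSCT00000028348, differed by 0.16 and 0.023. CCND3 differed by 0.41 in WI-CMJ (limma adjusted p = 0.0969). The 5 WI-C values of CCND2 lay below the 5 Ctl-C values, by 0.17 on the means, and this was not called, and 0.962% of all identifiers lay lower in WI-C without overlap.

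Among the replication genes, 0 of 7 identifiers were called against Ctl in cold-stored kidneys by limma. In C at an unadjusted p under 0.05 there were 3 at 6 h and 2 at 24 h, in CMJ 1 and 0, beside the same shares of all identifiers. PCNA, the sliding clamp of the replicative polymerases, came nearest: ENSSSCT00000032581 differed from Ctl-C by 0.69 (limma adjusted p = 0.141) and NM_001291925 by 0.84 (limma adjusted p = 0.103) at 6 h. Both PCNA identifiers were called without WI+CS6h-C sample 4, at 0.88 (limma adjusted p = 0.0363) and 1.02 (limma adjusted p = 0.0355), which brings the count at 6 h in C to 4. With a slide term NM_001291925 was called, at 0.98 (limma adjusted p = 0.0202). MCM3, a subunit of the replicative helicase, had the largest mean differences of the replication genes, 1.28 (limma adjusted p = 0.232) and 1.19 in C and 1.21 and 1.03 in CMJ. MCM5, another subunit, differed by 0.64 and 0.56 in C and by 0.36 and 0.41 in CMJ, and its CMJ difference at 6 h was -0.054 without sample 5. CDC45, which joins the MCM ring in the active helicase, stayed within -0.073 to 0.15 of Ctl on its pair of bright identifiers.

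Among the mitotic genes other than AURKB, none was called. CDK1, the kinase of mitotic entry, differed by 0.93 (limma adjusted p = 0.303) and 0.80 in C and by 0.58 and 0.51 in CMJ. CCNB1, its cyclin partner, differed by 0.54 and 0.42 in C and 0.23 and 0.20 in CMJ. AURKA, the Aurora kinase of the spindle poles, differed by 0.28 and 0.12 in C and by 0.30 and 0.14 in CMJ under ENSSSCT00000008202, and by 0.090 and 0.030 in C and -0.25 and -0.30 in CMJ under NM_001025225. In WI-CMJ the former differed by 0.30. CDC20, which activates the anaphase-promoting complex, differed by 0.69 and 0.53 in C and 0.67 and 0.42 in CMJ, and by 0.73 in WI-CMJ (limma adjusted p = 0.66). TOP2A, the topoisomerase that untangles sister chromatids, differed by 0.67 and 0.38 in C and 0.36 and 0.34 in CMJ, and by 0.61 in WI-CMJ. PTTG1 (securin) differed by 0.38 and 0.32 in C and 0.19 and 0.056 in CMJ, and by 0.33 in WI-CMJ. BUB3, a checkpoint protein of the kinetochore, kept group means between 9.08 and 9.23 in all 8 groups.

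Large mean differences that missed the test came with a wide spread among the cold-stored samples. The median SD within a group over the 25 identifiers was 0.319 in Ctl-C, 0.325 in WI-C, 0.29 in Ctl-CMJ and 0.247 in WI-CMJ. It was 0.655 and 0.542 in cold-stored C and 0.612 and 0.621 in cold-stored CMJ. The same medians over all identifiers were 0.218 in Ctl-C, 0.251 in WI-C, 0.223 in Ctl-CMJ and 0.188 in WI-CMJ, and 0.384 and 0.302 in cold-stored C and 0.239 and 0.271 in cold-stored CMJ.

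The spread followed the sample numbers. MCM3 read 5.55, 4.79, 3.10, 2.90 and 6.39 in samples 1 to 5 of WI+CS6h-C and 5.16, 4.61, 3.13, 3.47 and 5.93 in WI+CS24h-C. In CMJ it read 4.66, 4.81, 3.47, 3.38 and 6.40 at 6 h and 4.56, 4.87, 3.32, 2.79 and 6.28 at 24 h. Samples 3 and 4 stayed within the Ctl-C values of 2.69 to 4.19 in all 4 groups, and sample 5 was the highest in all 4. In Ctl-CMJ, MCM3 ranged from 3.02 to 3.53.

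CDK1 gave a like order. It read 7.70, 7.17, 5.60, 5.42 and 7.59 in WI+CS6h-C and 7.47, 6.91, 5.18, 5.76 and 7.52 in WI+CS24h-C. In CMJ it read 6.93, 7.16, 5.37, 4.97 and 8.23 at 6 h and 6.85, 7.21, 5.57, 5.05 and 7.66 at 24 h. Samples 3 and 4 were the lowest pair each time, while the Ctl values of CDK1 ran from 5.03 to 6.52 in C and from 5.47 to 6.37 in CMJ.

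CDC20, MCM5 and TOP2A varied in the same way. CDC20 read 5.72, 4.97, 3.40, 3.37 and 6.02 in WI+CS6h-C and 4.79, 5.10, 3.43, 3.25 and 6.16 in WI+CS6h-CMJ. MCM5 read 7.52, 7.10, 6.16, 5.79 and 8.23 in WI+CS6h-C and 6.91, 7.09, 5.82, 5.75 and 8.45 in WI+CS6h-CMJ. TOP2A read 6.24, 5.91, 4.44, 4.35 and 5.81 in WI+CS6h-C and 5.53, 5.95, 4.14, 3.79 and 6.04 in WI+CS6h-CMJ. These 5 genes had the largest SD between sample numbers among the members well above background on at least 36 arrays and were chosen after their values were seen. Their SD between the means of the numbers was 0.88 to 1.30, and the SD within a number was 0.24 to 0.36. For AURKB these were 0.172 and 0.128.

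**Figure D4:**
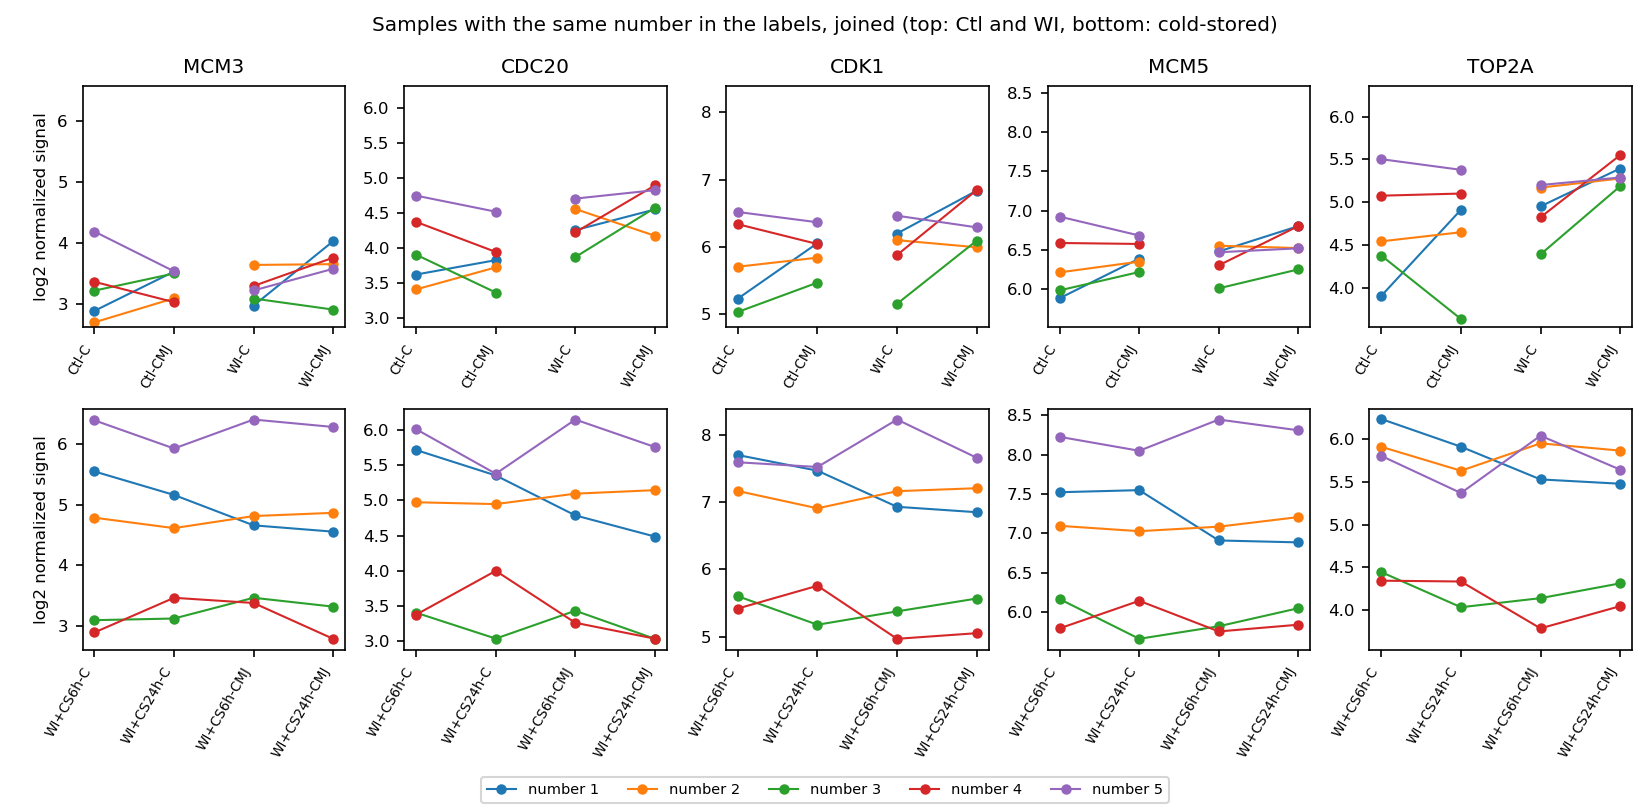
Log2 signal of MCM3, CDC20, CDK1, MCM5 and TOP2A by group, with a line joining samples that carry the same number in the labels, for Ctl and WI (top) and the cold-stored groups (bottom). In the cold-stored groups numbers 3 and 4 lie lowest for each of the 5 genes.

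In 14 of 25 member identifiers (56%) the 2 lowest samples carried the numbers 3 and 4 in each of the 4 cold-stored groups. Over 35767 identifiers with a value on each of these arrays this was so for 2.32%, and over the 17152 that were well above background on every array for 4.11%. Of the 19 members well above background on every array it was so for 10 (52.6%), or for 9 of 18 (50%) with the overlapping CDC45 probes counted once. The count over the 25 was 14 or 15 under each of the 4 other scalings and background steps tried. The 14 were AURKA ENSSSCT00000008202, BUB3, CCNB1, CCNB2 NM_001114282, CDC20, CDC45 under 3 identifiers, CDK1, MCM3, MCM5, PCNA ENSSSCT00000032581, PTTG1 and TOP2A. G1 genes (CCND2, CCND3, CDC25A, CDK2 and CDK4) were not among them, nor were AURKB and XRCC2. The pattern was noticed in these data, and the members share their samples, so the shares are a description and carry no test.

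The same was seen in the intraclass correlation, the share of the variance around the group means that lies between sample numbers. Over the 4 cold-stored groups its median was 0.79 for the members and 0.0657 for all identifiers, or 0.303 for those well above background on every array. It was over 0.5 in 20 of 25 members (80%) and in 20.8% of all identifiers. Between 6 h and 24 h its median for the members was 0.844 in C, with 0.000974 over all identifiers, and 0.951 in CMJ, with 0.436. Over the identifiers well above background on every array these medians were 0.173 in C and 0.704 in CMJ, where 69.5% of them were over 0.5, so in CMJ a high value was common among all bright identifiers. Between C and CMJ of Ctl it was 0.53 for the members and -0.108 for all identifiers, and in WI 0.249 and 0.0477. Whether a number marks 1 kidney cannot be told from the labels.

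**Figure D5:**
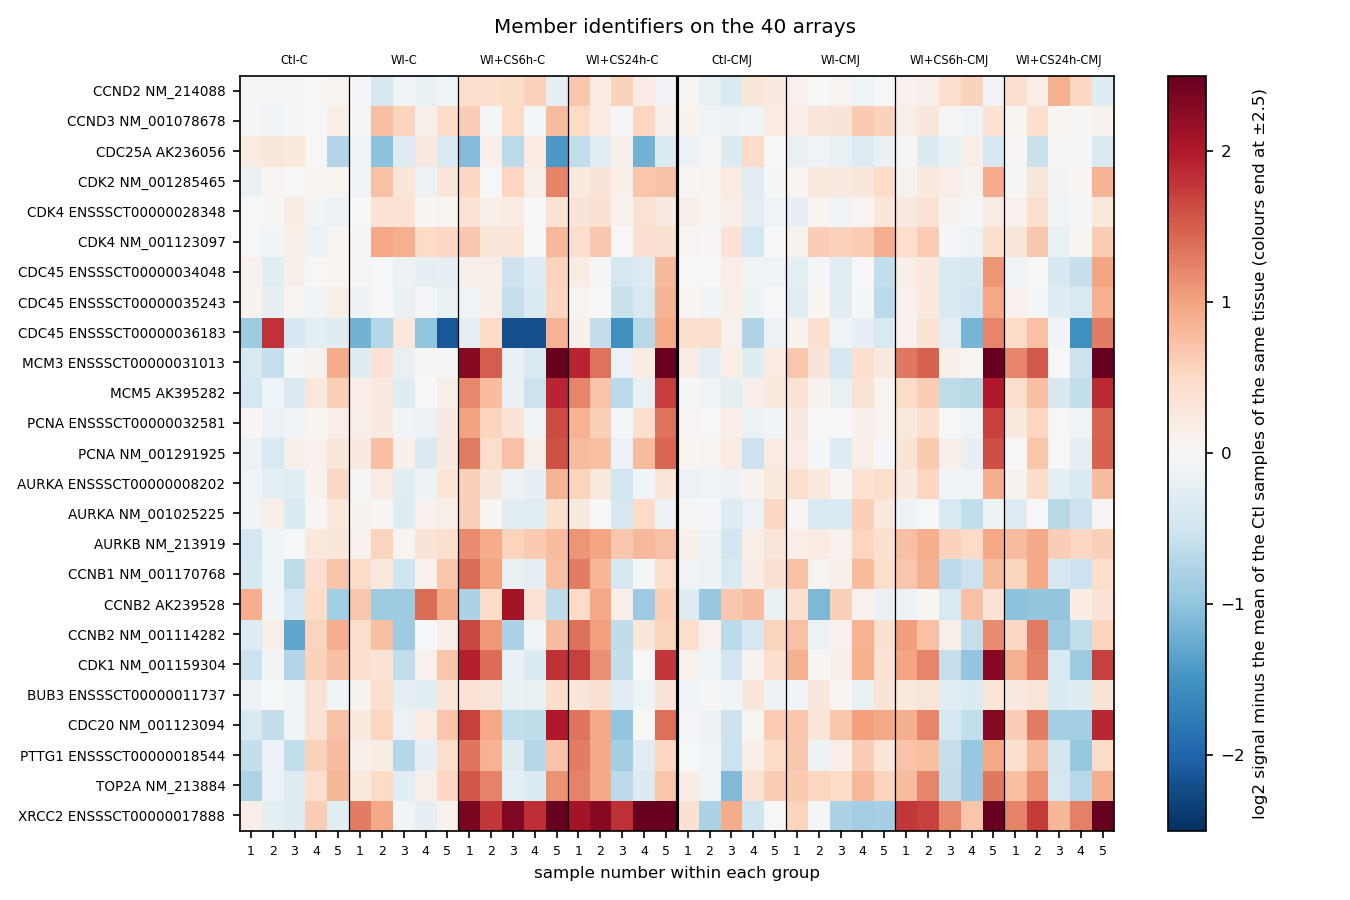
Each of the 25 identifiers (rows) on the 40 arrays (columns, samples 1 to 5 within each group), coloured by log2 signal minus the identifier's mean over the Ctl samples of the same tissue. In the cold-stored groups samples 1, 2 and 5 are high and samples 3 and 4 are low for most S phase and mitotic genes.

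Among the 11 identifiers found by full name or accession, limma called none against Ctl in any group, and at an unadjusted p under 0.05 there were 0 in cold-stored C, 1 at 6 h in CMJ and 0 at 24 h in CMJ, beside 21.4% and 16.2% of all identifiers in C and 16% and 17.7% in CMJ. CDC6, which loads the helicase onto origins, read 5.98, 5.74, 4.64, 4.58 and 7.23 in WI+CS6h-C and 5.61, 5.87, 4.64, 4.47 and 7.61 in WI+CS6h-CMJ, with Ctl values between 4.44 and 5.26. MCM4 read 9.83, 9.80, 8.93, 8.82 and 10.91 in WI+CS6h-C and 9.71, 9.81, 9.11, 8.92 and 11.47 in WI+CS6h-CMJ, with Ctl values between 9.07 and 9.46. In both genes sample 5 stood highest and samples 3 and 4 stayed within or under the Ctl range. In 7 of the 11 (63.6%) the 2 lowest cold-stored samples were numbers 3 and 4 in all 4 groups, beside 2.32% of all identifiers, but not in either MKI67 identifier, CDK6 or TPX2. MKI67, the Ki-67 proliferation marker, was not called against Ctl on either of its identifiers, and CDK6, the other partner of D-type cyclins, differed from Ctl by at most 0.19 in either direction. TPX2, an activator of AURKA, was not well above background on any array.

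Of 126 other cell cycle genes on a list, 56 were on the array under 64 identifiers, and 2 of these genes were called. CENPC, a protein of the inner kinetochore, was upregulated against WI-CMJ by 0.59 at 6 h (limma adjusted p = 0.000783) and 0.59 at 24 h (limma adjusted p = 0.000781), and by 0.51 against WI-C at 24 h (limma adjusted p = 0.0026). CDKN2D, an inhibitor of CDK4 and CDK6, was upregulated against Ctl-C at 6 h by 0.51 ± 0.13 (SE, limma adjusted p = 0.0258). Of these 64 identifiers, 56 had a difference above 0 against Ctl-C at 6 h and 56 at 24 h, with medians of 0.33 and 0.31. In CMJ 54 and 48 did, with medians of 0.22 and 0.15. Of all identifiers 57.3% and 53.1% lay above 0 in C and 48.2% and 51.1% in CMJ. Against Ctl 1 of the 64 was called in C at 6 h and 0 in the other 3 groups, beside 4.02%, 2.5%, 3.19% and 3.65% of all identifiers. None was called lower. In 20 of the 64 (31.2%) the 2 lowest samples were numbers 3 and 4 in each cold-stored group, beside 2.32% of all identifiers.

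Dividing cells in these samples could include leukocytes. Of the 4 leukocyte identifiers on the list, 3 (CD3E, CD3G and CD14) were well above background on all 40 arrays, and none of the 3 was called against Ctl. CD14, a monocyte marker, read 5.59 ± 0.19 (SD, n = 5) in Ctl-C and 5.74 ± 0.81 in WI+CS6h-C, and 5.60 ± 0.21 in Ctl-CMJ and 5.58 ± 0.51 in WI+CS6h-CMJ. Of the 6 skeletal muscle identifiers, the 2 of CKM were called in cold-stored C, at 2.14 and 1.33 above Ctl-C at 6 h, and of the 6 endothelial ones the 2 of KDR were called in cold-stored CMJ. AQP3, a water channel of the collecting duct, was lower than in WI in all 4 cold-stored groups, by 0.63 to 0.88, and SLC22A8, a proximal tubule transporter, was higher in WI+CS6h-CMJ than in Ctl-CMJ by 0.80 (limma adjusted p = 0.0373). The mean of the adipocyte list stood apart in WI-CMJ, a reference group of the XRCC2 calls, at 3.846 to 6.23 with a median of 5.424, against 3.505 to 4.022 in Ctl-CMJ. There ADIPOQ, an adipocyte hormone, was well above background under EF601160 on 3 of 5 WI-CMJ arrays and on 0 of the Ctl-CMJ arrays. Marker lists also differed by sample number. The mean of the proximal tubule list was lowest in sample 5 in each of the 4 cold-stored groups, at 10.3 and 10.22 in C and 9.884 and 9.934 in CMJ (6 h and 24 h), where the other samples lay between 10.29 and 11.16. The mean of the skeletal muscle list was lowest in samples 3 and 4 in 3 of the 4 groups, all but WI+CS24h-CMJ. The erythroid marker was at 0.069 to 1.52 in samples 1 and 2 and at 1.72 to 5.83 in samples 3 to 5. Their part in the results above was not tested.

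Between 57.01% and 69.91% of the spots of an array were well above background, and the lowest shares were those of WI+CS6h-C samples 5 and 3. Sample 5 of that group was among the highest for MCM3 and CDC20, and sample 3 among the lowest. The tissue labels were checked in Ctl only, with SLC12A1, the sodium transporter of the thick ascending limb. It was higher in Ctl-CMJ than in Ctl-C by 1.24 ± 0.25 (SE, limma adjusted p = 0.0119), but the arrays overlapped. Most others of its list, and all proximal tubule and podocyte identifiers, were not called there. In cold-stored kidneys the mean of its list overlapped between tissues, at 9.348 to 9.619 in WI+CS6h-C and 9.465 to 9.943 in WI+CS6h-CMJ.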

How the data were processed

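RNA of each sample was hybridised to a one-colour Agilent porcine 44k array, read with Feature Extraction 11.5.1.1; the submitters' processing notes also name limma and R 2.15.2, and a genome build is not given in the sources used here. The processed intensity (background-subtracted by the scanner software) in the deposited array files was used; a deposited log2 matrix of the authors' normalized values served as an alternative. From 43803 non-control spots, outlier spots (10 to 85 an array) were set missing, log2 intensities were quantile-normalized over 40 arrays, and spots were averaged per probe and then per identifier. Groups came from the labels. Limma 3.58.1 (R 4.3.3) was fitted per tissue over 4 groups, and over 8 groups for tissue and interaction terms. Samples were separate kidneys, except that 6 h and 24 h samples, and both tissues, share kidneys, which the fit ignores; an alternative has the kidney as a random block, taking samples of 1 number as 1 kidney. Same-numbered samples of Ctl, WI and cold-stored groups did not vary together, so numbers were not used as pairs. The number of arrays limits the precision. Members, lists and tests were chosen with earlier results of these data known. Full values are given for members called at least once; other members by range, the sample-number examples chosen after values were seen. On simulated data, 39 of 100 identifiers shifted by 0.75 and 80 of 100 shifted by 1.5 were recovered in WI+CS6h-C against Ctl-C (35939 identifiers). These were drawn from the whole array, with independent noise at each identifier's SD pooled over the 4 groups. The median SD in WI+CS6h-C was 0.655 for the members and 0.384 over all identifiers, so the rates do not give the recovery of members. One marker gene is not reported here.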

Additional observations from a re-analysis of the deposited data

Results flagged for a closer look

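Of 200 groups of 5 samples (25 identifiers in 8 groups), 9 held a sample that stood apart from the other 4 by Dixon's criterion, and chance gives about 1 in 20. In Ctl-C these were BUB3 in sample 4 at 9.43 (nearest 9.08), CDC25A in sample 5 at 11.35 (nearest 12.08), CDC45 ENSSSCT00000036183 in sample 2 at 4.09 (nearest 2.05) and CDK2 in sample 1 at 4.98 (nearest 5.16). In WI-C it was AURKA NM_001025225 in sample 3 at 2.84 (nearest 3.19), and in WI+CS6h-C it was CCND2 in sample 5 at 9.80 (nearest 10.40). In CMJ they were PCNA NM_001291925 in Ctl sample 4 at 5.30 (nearest 5.88), CDK2 in WI+CS6h sample 5 at 6.11 (nearest 5.42) and CCND3 in WI+CS24h sample 2 at 5.99 (nearest 5.66). AURKB and XRCC2 held no such sample.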

How the results depend on the processing

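The number of called identifiers moved as follows. With normexp background correction and its offset of 50 it was 0 in each of the 8 comparisons of cold-stored kidneys with Ctl or WI, and also with the offset alone added to the processed intensity, an alternative chosen after seeing the data. Calls over all identifiers fell too: in C at 6 h against Ctl from 1445 to 263 with normexp and 554 with the offset alone, in C at 24 h from 900 to 192 and 389, in CMJ at 6 h from 1148 to 164 and 344, and in CMJ at 24 h from 1313 to 188 and 380. In the deposited log2 matrix it was 1 in C at 6 h, 1 in C at 24 h and 1 in CMJ at 6 h against Ctl, and 0 against WI in C at 6 h, in CMJ at 6 h and in CMJ at 24 h. In C at 24 h against WI the count was 1 as before, but of AURKB (0.56, limma adjusted p = 0.0399) in place of XRCC2 (0.27, limma adjusted p = 0.213). WI+CS24h-CMJ against Ctl-CMJ gave 2 with 75th percentile scaling, with quantiles within each group, with the filter on dim identifiers, with the scan day term and with kidney as a random block (consensus correlation 0.047 in C and 0.474 in CMJ), since XRCC2 passed there, and 0 with a slide term. Quantiles within each group also gave 3 in C at 6 h, 2 in C at 24 h and 2 in CMJ at 6 h against WI, with AURKB called in C at both times (limma adjusted p = 0.012 and 0.0459) and in CMJ at 6 h (limma adjusted p = 0.0187). Under this scaling the median difference over all identifiers lay between -0.13 and 0.24. With the slide term PCNA NM_001291925 was called in C at 6 h against Ctl (0.98, limma adjusted p = 0.0202). That term gave 1 in C at 24 h against Ctl and 0 against WI in C at 6 h and in CMJ at 6 h, where calls over all identifiers fell from 900 to 121, from 692 to 7 and from 1000 to 65. A term for the share of detected spots, chosen after seeing the data as was the kidney block, gave 2 in C at 24 h against WI, 1 in CMJ at 6 h against Ctl and 0 in CMJ at 6 h against WI. The cause of these moves was not tested. With the replicate block, WI+CS24h-CMJ against Ctl-CMJ gave 2 called identifiers (XRCC2, limma adjusted p = 0.0427) and no other count moved by over 1.5 times; Ctl and WI samples of a number did not deviate with cold-stored ones, so the numbers do not pair them.

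Leaving out each array of the compared groups in turn gave 2 to 4 in C at 6 h against Ctl (4 without WI+CS6h-C sample 4, where PCNA passed), 1 to 2 in C at 6 h against WI (2 without WI+CS6h-C sample 5), and 1 to 2 in CMJ against Ctl at both times. In CMJ at 24 h against WI it gave 0 to 1, with 0 without WI-CMJ sample 3, 4 or 5. The XRCC2 difference in CMJ at 24 h was called without Ctl-CMJ sample 3 (limma adjusted p = 0.0326) or WI+CS24h-CMJ sample 3 (limma adjusted p = 0.0389). MCM5 in CMJ at 6 h against Ctl ranged from -0.054 without WI+CS6h-CMJ sample 5 to 0.62 without sample 4, the only one of the differences recomputed per gene that changed sign on leaving out an array. XRCC2, CCNB2 AK239528 and CDC45 ENSSSCT00000036183 lie near background on most arrays, and their size is not measured there.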
